A study of Arabidopsis thaliana with 9 samples.

Results

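The acute heat response of Arabidopsis leaves was read from 3 heat shock (HS) libraries and 3 control (CK) libraries. HS plants spent 6 hours at 38 °C during the light period. CK plants stayed at 23 °C in the light and 18 °C in the dark. All were wild type Col-0 plants grown in long days, with leaves taken 30 days after sowing. The other 3 of the 9 libraries came from plants warmed to 28 °C in the light and 23 °C in the dark for 7 days, and entered the filter and the estimate of the spread. Of 33602 genes in the count table, 18952 reached 10 counts in 3 or more of the 9 libraries and were tested. The clock hour at which CK leaves were taken and the number of plants behind each RNA sample are not given in the sources used here, so the p-values measure only the spread between these samples. The HS libraries held from 11660970 to 13734801 counts and the CK libraries from 13772506 to 17768334. Levels are CPM, counts brought to one library total after scaling by edgeR's TMM factors, given in the order of replicates 1, 2 and 3. CPM are not divided by gene length, so they compare libraries and not genes. Fold changes are HS over CK on the log2 scale (n = 3 libraries each), ± a standard error (SE), followed by the value without HS replicate 3. The SE was derived from the fold change and the F statistic of edgeR's quasi-likelihood test, fitted over all 9 libraries. It is therefore not the spread of the 3 libraries of a group.

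Heat unfolds proteins. Cells answer through heat shock factors, which bind heat shock elements, alternating nGAAn units in promoters, and switch on chaperones. Small HSPs hold unfolded proteins, HSP70 and HSP90 machines refold them with the help of J-domain proteins and other co-chaperones, and HSP100 proteins pull aggregates apart. In leaves the same stress is known to touch photosynthesis, water balance and abscisic acid signalling, and warm temperature is known to weaken salicylic acid immunity in Arabidopsis.

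HS replicate 3 stood apart from HS replicates 1 and 2. Of the genes tested, 3886 (20.5%) differed at least 2-fold between HS replicate 3 and the mean of the other two, 2723 of them higher and 1163 lower in HS replicate 3. The same count was 1630 for HS replicate 1 and 1493 for HS replicate 2, and from 264 to 496 for the CK replicates. HS replicates 1 and 2 differed from each other at least 2-fold at 624 genes. Across genes, which are not independent replicates, the Pearson r of log2 CPM with the CK libraries was from 0.871 to 0.875 for HS replicate 3 and from 0.809 to 0.835 for HS replicates 1 and 2. By this measure HS replicate 3 lay nearer to CK, though its share of counts from small HSP genes, given further on, was the highest of the HS libraries. Counts and fold changes are therefore given with and without this library.

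**Figure D1:**
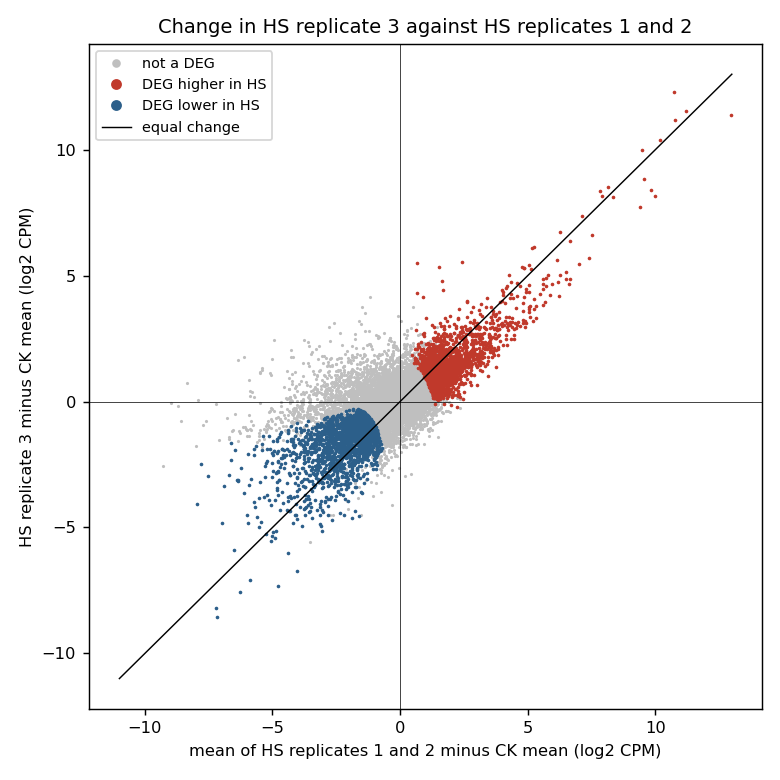
Change of each tested gene against the CK mean in HS replicate 3 (vertical axis, log2 CPM) and in the mean of HS replicates 1 and 2 (horizontal axis, log2 CPM), with DEGs in colour and a line of equal change. Nearly all DEGs lie on the same side of 0 on both axes (2138 of 2142 higher and 1985 of 1985 lower in HS), while a cloud of grey points with large falls on the horizontal axis lies near 0 on the vertical axis. HS replicate 3 itself entered the calls, so the agreement among DEGs follows in part from how they were chosen.

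Markers of leaf and other tissues were summed in each library. The 8 mesophyll markers summed to 49633, 45381 and 35069 CPM in HS, against 28691, 36889 and 33877 CPM in CK, and none was at 0. Of 17 root markers, 8 were at 0 in all HS libraries and 3 in all CK libraries, and the sums overlapped (347, 336 and 440 CPM in HS, against 421, 470 and 440 CPM in CK). Of the root markers with more than 1 CPM in some library, PRXCB, a peroxidase, overlapped between the groups, and GLR2.1, a glutamate receptor, had 7.68, 5.03 and 7.30 CPM in HS, against 5.14, 4.76 and 4.41 CPM in CK. SCR, a root patterning factor, had 30.5, 33.0 and 22.6 CPM in HS, against 23.3, 21.6 and 22.7 CPM in CK. PRXCA, a cell wall peroxidase, had 0, 0 and 15.9 CPM in HS, against 35.3, 28.1 and 21.1 CPM in CK. PYK10, an ER body beta-glucosidase, had 0.233, 0 and 14.4 CPM in HS, against 17.58, 30.2 and 15.73 CPM in CK. The root hair marker RHD6 was at 0 in every library of both groups. HS replicate 3 also had the highest sum of the 16 stem and secondary wall markers (152 CPM, against 76.2 and 100.2 CPM in the other HS libraries and from 77.0 to 97.2 CPM in CK). Flower and pollen markers summed to 11.2, 12.7 and 13.03 CPM in HS, against 33.5, 6.08 and 17.1 CPM in CK, so the sums overlapped. AGL18 made up most of each HS sum. The CK replicates differed, in that AP1, AP3, PI and SEP3 were lower in CK replicate 2 than in CK replicates 1 and 3. AP1 had 5.78, 0.287 and 3.77 CPM in CK. Phloem companion cell markers summed to 1045, 869 and 687 CPM in HS, against 471, 408 and 426 CPM in CK. The guard cell marker sums overlapped between the groups, but TGG1 made up most of each sum. Of the 13 guard cell markers, 6 did not overlap, and they went both ways. OST1 was higher in HS and a DEG, with 29.4, 32.5 and 23.9 CPM in HS, against 12.7, 14.2 and 12.2 CPM in CK. MYB60, FMA, HT1, EPF1 and ICE1 were lower in every HS library and were not DEGs with all replicates. The part of these differences in the results was not tested. In bulk leaf RNA, fewer cells of a type and less RNA per cell cannot be told apart.

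A DEG had an adjusted p under 0.05 by edgeR's quasi-likelihood test and at least a 2-fold change, and a gene is said to have risen or fallen only where it was a DEG. In HS vs CK, 4127 genes (21.8% of those tested) were DEGs, 2142 higher (11.3%) and 1985 lower (10.5%) in HS. Without HS replicate 3 there were 5848 DEGs (30.9%), 2449 higher (12.9%) and 3399 lower (17.9%). With scaling to library size alone, without TMM, 1502 were higher and 2283 lower, so 39.7% of the DEGs were higher in HS, against 51.9% with TMM. That scaling moved the median log2 fold change of all tested genes to -0.15, against 0.03 with TMM. Directions below are those with TMM. Counts in each gene group below are to be read against the shares of all genes tested, 11.3% higher and 10.5% lower. Without HS replicate 3 these shares were 12.9% and 17.9%.

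Falls outnumbered rises at 4-fold and 8-fold, and rises outnumbered falls at 64-fold. At least 4-fold changes were seen at 606 higher and 841 lower DEGs, at least 8-fold at 255 and 355, and at least 64-fold at 43 and 24. The HS and CK libraries did not overlap at 2104 of the higher and 1975 of the lower DEGs, and likewise at 10971 of all 18952 genes tested. Statements below that the groups were separate at named genes are to be read against these numbers. Those genes were chosen mostly by size of change, and the largest rises and falls also by lack of overlap. HS replicate 3 alone was at least 2-fold from the CK mean at 1428 of the higher and 1528 of the lower DEGs, where the mean of HS replicates 1 and 2 was so at 2007 and 1895. Without it, 448 genes became DEGs higher and 1514 DEGs lower in HS, 141 and 100 were lost, and 0 changed direction.

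**Figure D2:**
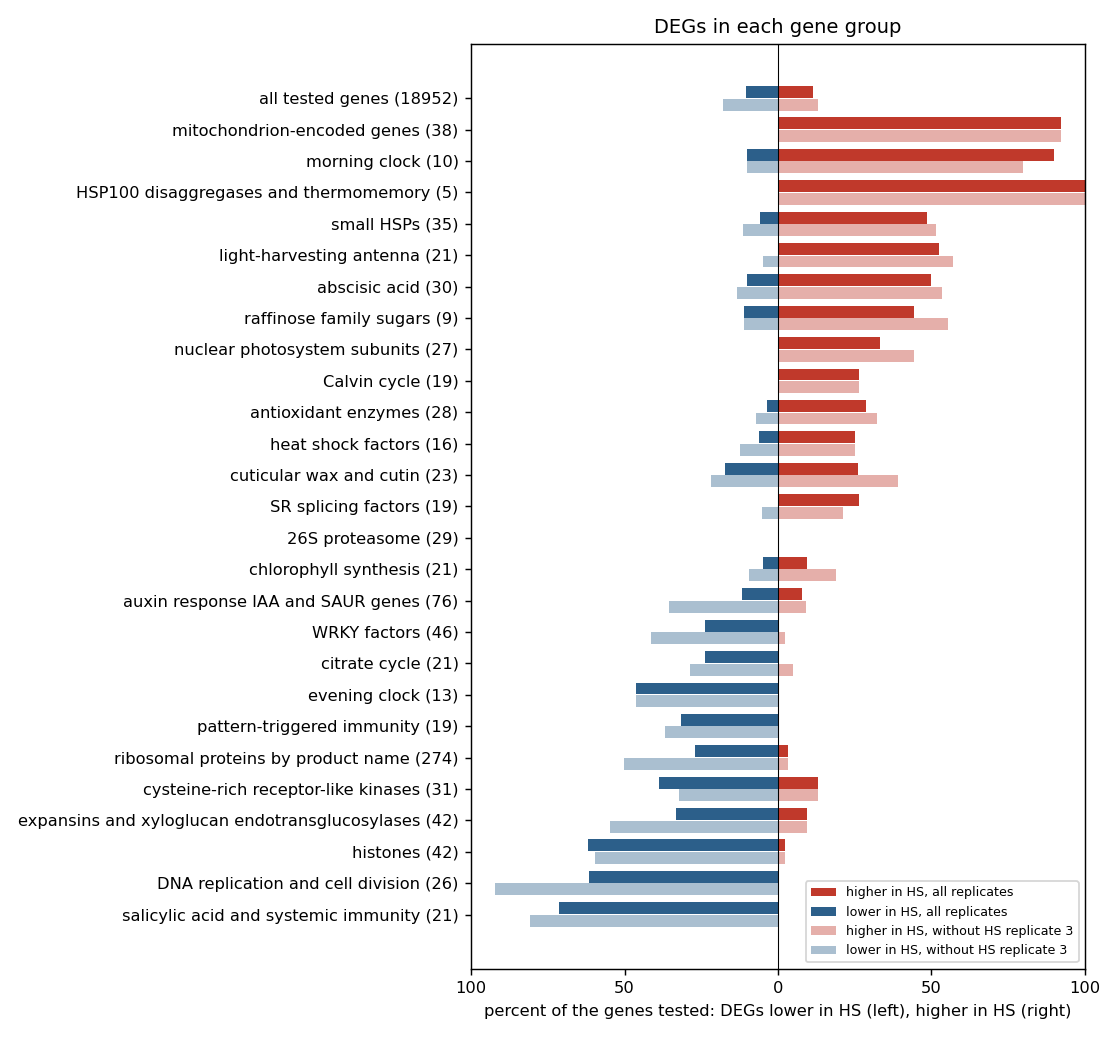
Percent of the genes tested in each gene group that were DEGs lower in HS (left of 0) or higher in HS (right of 0), from all replicates (dark bars) and without HS replicate 3 (pale bars), with the number tested in brackets. All 5 HSP100 and thermomemory genes were higher and 15 of 21 salicylic acid genes lower, and leaving out HS replicate 3 lengthened the lower bars for cell division, ribosomal and auxin response genes.

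Small HSPs were among the largest rises. They are ATP-independent holdases that bind unfolding proteins. Of genes with a small HSP or HSP20-like fold, 17 of 35 genes tested rose and 2 fell, with a median log2 fold change of 0.93 (18, 4 and 1.09 without HS replicate 3), against 11.3% and 10.5% of all genes tested. The median over all tested genes was 0.03 (-0.01 without HS replicate 3). The group also holds HSP20-like genes such as BOB1 and RTM2 that did not pass. Small HSP genes took 0.585%, 0.666% and 0.853% of the counts in HS, against 0.061%, 0.050% and 0.054% in CK.

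The promoters of 3 strongly risen genes are shown because each holds 3 alternating heat shock element units in a row, GAANNTTC extended by NNGAA on either strand, and are the 3 with the largest rises among the named genes that do. HSP17.4 (AT3G46230) and AT1G53540 encode cytosolic small HSPs and AT1G62510 a protein of the lipid transfer family. Each sequence runs from 250 bases before to 50 bases after the annotated start, 5′ to 3′ on the strand of the gene, from RefSeq's TAIR10.1, and capitals mark the 3-unit element. The windows are chr3:16984818-16985117 (minus strand), chr1:19980049-19980348 (plus strand) and chr1:23137205-23137504 (minus strand), in that order.
HSP17.4: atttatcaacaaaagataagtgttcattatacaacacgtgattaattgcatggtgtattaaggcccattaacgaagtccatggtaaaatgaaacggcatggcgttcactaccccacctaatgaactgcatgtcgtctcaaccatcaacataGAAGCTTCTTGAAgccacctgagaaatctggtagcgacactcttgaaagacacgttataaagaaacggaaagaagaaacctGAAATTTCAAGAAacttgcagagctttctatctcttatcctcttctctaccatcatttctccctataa
AT1G53540: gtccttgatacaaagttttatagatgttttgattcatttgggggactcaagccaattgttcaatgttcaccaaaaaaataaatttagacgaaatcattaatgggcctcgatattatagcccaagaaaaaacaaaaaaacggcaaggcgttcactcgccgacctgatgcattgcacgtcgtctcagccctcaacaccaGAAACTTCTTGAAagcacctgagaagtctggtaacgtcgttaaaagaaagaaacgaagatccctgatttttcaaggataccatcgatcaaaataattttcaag
AT1G62510: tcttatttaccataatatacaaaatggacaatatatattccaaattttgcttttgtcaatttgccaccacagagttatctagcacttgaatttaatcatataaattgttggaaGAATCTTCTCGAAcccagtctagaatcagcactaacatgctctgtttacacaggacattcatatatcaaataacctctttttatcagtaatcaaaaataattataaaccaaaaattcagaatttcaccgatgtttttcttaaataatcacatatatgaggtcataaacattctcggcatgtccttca

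In HSP17.4 the element occurs 2 times, and in the other two promoters 1 time each. Over promoters of this length, the 3-unit element was held by 29 of 2087 DEGs higher in HS (1.39%), 11 of 1968 DEGs lower in HS (0.56%) and 108 of 18814 genes tested (0.57%). Of the 17 small HSP genes that rose, 2 held it and 5 held the 2-unit form GAANNTTC, which 11.69% of the higher DEGs, 13.41% of the lower DEGs and 11.38% of all tested promoters also held. Among the named genes, the promoters of GolS1, Hop3, HSP70, SR45a, FLA11, DREB2A and AT3G09440 held the 3-unit element as well, the last of them in a gene that fell. A match is a description of these letters and not a bound site.

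HSP17.4 had 445, 461 and 579 CPM in HS, against 0.0925, 0 and 0.0640 CPM in CK (at least 2953-fold higher in HS, at least 2703-fold higher without HS replicate 3, edgeR adjusted p = 5.1e-06). AT1G53540 had 216, 202 and 242 CPM in HS, against 0.0463, 0 and 0.0640 CPM in CK (at least 1312-fold higher in HS, at least 1246-fold higher without HS replicate 3, edgeR adjusted p = 6.2e-07). All CK libraries of these genes held at most 3 counts, so the folds are lower bounds at 3 counts per library. HSP21, the chloroplast small HSP, had 1299.6, 1407 and 457 CPM in HS, against 0.0925, 0 and 0 CPM in CK (at least 6291-fold higher in HS, at least 8072-fold higher without HS replicate 3), with HS replicate 3 the lowest of its group. ATHSP22.0, of the endomembrane class, showed the opposite order within HS, with 213, 388 and 845 CPM in HS, against 0.0925, 0 and 0 CPM in CK (at least 2874-fold higher in HS, at least 1791-fold higher without HS replicate 3). HSP23.6-MITO, of the mitochondrion, had 51.3, 51.5 and 44.2 CPM in HS, against 0.0463, 0 and 0 CPM in CK (at least 292-fold higher in HS, at least 307-fold higher without HS replicate 3). These 5 genes, of the cytosol, chloroplast, endomembrane system and mitochondrion, were raised in every HS library. They come from the largest rises, chosen among DEGs without overlap, so this separation is set by the choice.

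HSP18.2, a cytosolic class I protein, had 2555, 3001 and 3642 CPM in HS, against 1.57, 1.61 and 1.15 CPM in CK (log2 fold change 11.04 ± 0.36, 10.89 without HS replicate 3, edgeR adjusted p = 1.5e-06). The lowest HS library lay far above the highest CK library here, as at the next members. AT2G29500, of the same family, had 551, 503 and 681 CPM in HS, against 1.203, 1.72 and 2.37 CPM in CK (log2 fold change 8.37 ± 0.38, 8.24 without HS replicate 3, edgeR adjusted p = 4.9e-06). HSP17.6A, a class II protein, had 135, 142 and 193 CPM in HS, against 0.0463, 0.115 and 0 CPM in CK (at least 935-fold higher in HS, at least 828-fold higher without HS replicate 3), and reads of it and its neighbour HSP17.6II could have been split, so their counts are uncertain. The 2 members that fell were HSP1, annotated as a class II protein, and AT4G02450. HSP1 had 0.854, 1.57 and 1.86 CPM in HS, against 6.80, 7.75 and 7.10 CPM in CK (log2 fold change -2.33, -2.57 without HS replicate 3).

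The disaggregase and thermomemory genes rose at 5 of 5 members, with a median log2 fold change of 2.11 (2.42 without HS replicate 3). HSP101, the cytosolic disaggregase needed for acquired thermotolerance, had 32.2, 30.2 and 49.5 CPM in HS, against 11.7, 11.1 and 14.2 CPM in CK (log2 fold change 1.60 ± 0.23, 1.34 without HS replicate 3, edgeR adjusted p = 0.001). CLPB3, its chloroplast counterpart, had 420.1, 372 and 168 CPM in HS, against 62.4, 79.4 and 80.0 CPM in CK (log2 fold change 2.11 ± 0.42, 2.42 without HS replicate 3, edgeR adjusted p = 0.0043). HSA32, which prolongs the memory of heat, had 52.1, 54.7 and 97.2 CPM in HS, against 1.34, 1.15 and 1.28 CPM in CK (log2 fold change 5.75, 5.40 without HS replicate 3). FTSH6, the chloroplast protease that degrades HSP21, had 187, 204 and 72.5 CPM in HS, against 0, 0.0574 and 0.192 CPM in CK (at least 921-fold higher in HS, at least 1165-fold higher without HS replicate 3). HS replicate 3 was the highest HS library at HSP101 and HSA32 and the lowest at the chloroplast members CLPB3 and FTSH6. No HS library overlapped a CK library at any of these genes.

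The HSP70 and HSP90 families split. Of the HSP70s, 4 of 17 genes tested rose and 4 fell, with a median log2 fold change of 0.17 (4, 4 and 0.10 without HS replicate 3). Of the HSP90s, 2 of 7 genes tested rose and 3 fell, with a median log2 fold change of 0.35 (2, 3 and 0.38 without HS replicate 3). HSP70, the heat-induced cytosolic chaperone, had 289.6, 226 and 328 CPM in HS, against 13.8, 13.7 and 15.4 CPM in CK (log2 fold change 4.30 ± 0.19, 4.17 without HS replicate 3, edgeR adjusted p = 4.4e-06). HSP70T-2, a truncated relative, had 41.1, 35.4 and 47.7 CPM in HS, against 2.04, 2.76 and 1.92 CPM in CK (log2 fold change 4.21 ± 0.23, 4.09 without HS replicate 3, edgeR adjusted p = 1.3e-05). Both lay above CK in all HS libraries, while the next genes lay below. HSC70-1, the main constitutive cytosolic HSP70, had 456, 449.6 and 1531 CPM in HS, against 1987, 1901 and 2082 CPM in CK (log2 fold change -1.29, -2.14 without HS replicate 3), so the size of its fall rests on whether HS replicate 3 is used. AT3G09440, another cytosolic HSP70, had 60.9, 38.5 and 56.1 CPM in HS, against 276, 315 and 404 CPM in CK (log2 fold change -2.68, -2.74 without HS replicate 3). The groups did not overlap at either gene. Hsp70-2, a close relative, had 4.42, 4.78 and 12.1 CPM in HS, against 33.9, 26.1 and 31.8 CPM in CK (log2 fold change -2.10, -2.73 without HS replicate 3).

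HSP90.1, the heat-induced cytosolic HSP90, had 186, 160.0 and 193 CPM in HS, against 12.3, 14.5 and 16.3 CPM in CK (log2 fold change 3.64 ± 0.17, 3.59 without HS replicate 3, edgeR adjusted p = 5.1e-06). Constitutive cytosolic copies went the other way. HSP81-2 had 107, 89.4 and 123 CPM in HS, against 274, 273 and 356 CPM in CK (log2 fold change -1.50 ± 0.23, -1.62 without HS replicate 3, edgeR adjusted p = 0.0013). HSP81-3 had 103, 79.5 and 92.8 CPM in HS, against 282, 288 and 359 CPM in CK (log2 fold change -1.75, -1.76 without HS replicate 3). These copies are nearly alike and lie close together, so their counts are uncertain. The third that fell was Hsp81.4 (log2 fold change -1.20, -1.23 without HS replicate 3). In the chloroplast, CR88, the HSP90 of the stroma, had 759, 685 and 444 CPM in HS, against 261, 252 and 304 CPM in CK (log2 fold change 1.21, 1.41 without HS replicate 3). The endoplasmic HSP90, SHD, had 477, 485 and 446 CPM in HS, against 346, 365 and 396 CPM in CK and did not pass.

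**Figure D3:**
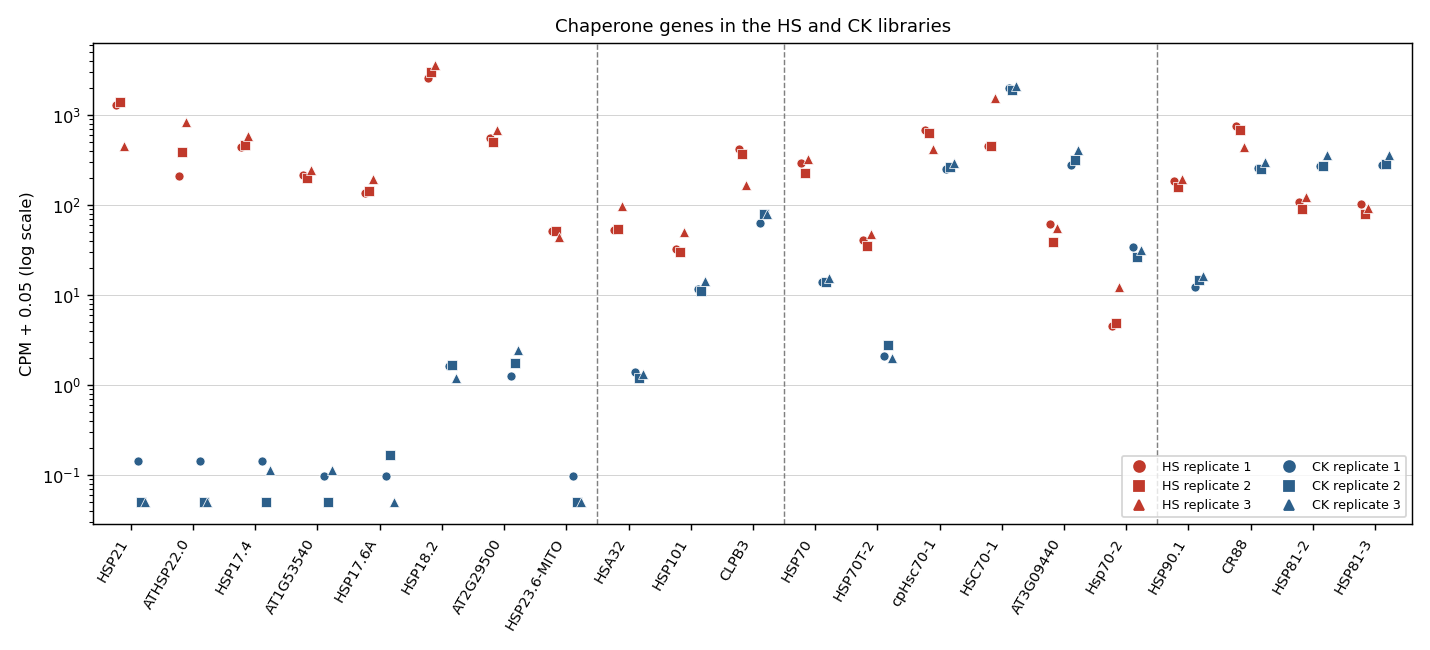
CPM plus 0.05 on a log axis for small HSPs, disaggregase and thermomemory genes, HSP70s and HSP90s (separated by dashed lines), with the 3 HS libraries left of the 3 CK libraries for each gene and a marker shape per replicate. HSP70 and HSP90.1 lie higher in HS while HSC70-1, AT3G09440, Hsp70-2, HSP81-2 and HSP81-3 lie lower, and HS replicate 3 lies lowest of the HS libraries at HSP21 and CLPB3 but highest at ATHSP22.0 and HSA32.

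Among co-chaperones, 5 of 17 genes tested rose and 0 fell, with a median log2 fold change of 0.32 (5, 1 and 0.33 without HS replicate 3). Hop3, which hands clients from HSP70 to HSP90, had 76.6, 62.7 and 103 CPM in HS, against 3.01, 2.07 and 2.24 CPM in CK (log2 fold change 5.04 ± 0.28, 4.82 without HS replicate 3, edgeR adjusted p = 1.3e-05). Its relative Hop1 had 40.8, 30.6 and 41.3 CPM in HS, against 38.4, 40.1 and 40.9 CPM in CK and did not pass. Hop2 had 67.3, 64.6 and 69.9 CPM in HS, against 31.97, 35.8 and 38.2 CPM in CK, just under the 2-fold threshold. AT5G48570, an FKBP-type isomerase, had 91.7, 82.0 and 140.4 CPM in HS, against 6.11, 9.30 and 8.83 CPM in CK (log2 fold change 3.70 ± 0.25, 3.43 without HS replicate 3, edgeR adjusted p = 3.2e-05). BAG6, a stress-induced HSP70 partner, had 53.9, 45.8 and 49.2 CPM in HS, against 12.7, 14.4 and 11.7 CPM in CK (log2 fold change 1.94, 1.95 without HS replicate 3). At Hop3, AT5G48570 and BAG6 the groups did not overlap. BAG2 and BAG5 were the other two that rose. Of the J-domain proteins, 13 of 110 genes tested rose and 5 fell, with a median log2 fold change of 0.20 (18, 11 and 0.20 without HS replicate 3), risers being near the 11.3% of all genes tested. AT2G20560 had 49.1, 41.5 and 32.5 CPM in HS, against 5.37, 5.17 and 4.48 CPM in CK (log2 fold change 3.03, 3.17 without HS replicate 3). ATERDJ3A, of the endoplasmic reticulum, had 16.9, 19.2 and 15.1 CPM in HS, against 2.54, 3.73 and 3.01 CPM in CK (log2 fold change 2.46, 2.55 without HS replicate 3). JAC1, needed for chloroplast movement, had 75.7, 73.2 and 38.7 CPM in HS, against 7.96, 9.01 and 9.08 CPM in CK (log2 fold change 2.85, 3.10 without HS replicate 3). These 3 were higher in every HS library than in any CK library. None of 9 HSP60 and HSP10 chaperonin genes was a DEG, with a median log2 fold change of 0.38 (0.12 without HS replicate 3).

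Of the heat shock factors, 4 of 16 genes tested rose and 1 fell, with a median log2 fold change of 0.48 (4, 2 and 0.50 without HS replicate 3), against 11.3% and 10.5% of all genes tested. HSFA2, known as the strongest heat-induced factor and a keeper of acquired thermotolerance, had 4.11, 3.22 and 4.99 CPM in HS, against 4.07, 2.70 and 3.77 CPM in CK and did not pass (log2 fold change 0.22, 0.06 without HS replicate 3, edgeR adjusted p = 0.69). Of the class A1 factors, known as the master switches, HSF1 (HSFA1A), HSF3 (HSFA1B), HSFA1D and HSFA1E were tested. None was a DEG with or without HS replicate 3. HSFA1D had 14.4, 13.7 and 14.7 CPM in HS, against 10.9, 10.4 and 10.6 CPM in CK, which passed the adjusted p but not the 2-fold threshold. HSFA2 overlapped between the groups and HSFA1D did not. HSFA3, a factor under DREB2A, had 10.01, 7.75 and 8.71 CPM in HS, against 2.54, 3.44 and 2.11 CPM in CK (log2 fold change 1.70 ± 0.22, 1.71 without HS replicate 3, edgeR adjusted p = 0.00067). HSFB2A, a repressor class factor, had 32.1, 37.3 and 20.9 CPM in HS, against 11.2, 4.59 and 5.63 CPM in CK (log2 fold change 2.06 ± 0.44, 2.26 without HS replicate 3, edgeR adjusted p = 0.0066). HSFA6A and HSFA6B also rose. The 1 that fell was HSF A4A, a class A factor, with 15.9, 14.6 and 11.3 CPM in HS, against 36.9, 28.2 and 31.7 CPM in CK (log2 fold change -1.21, -1.08 without HS replicate 3).

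Of the other regulators, 3 of 11 genes tested rose and 0 fell, with a median log2 fold change of 0.30 (3, 0 and 0.21 without HS replicate 3). MBF1C, a heat-induced transcriptional coactivator, had 158, 183 and 148 CPM in HS, against 16.1, 14.7 and 12.3 CPM in CK (log2 fold change 3.50 ± 0.19, 3.57 without HS replicate 3, edgeR adjusted p = 1.3e-05). DREB2A, which switches on HSFA3 and drought genes, had 32.2, 47.4 and 25.99 CPM in HS, against 21.8, 10.5 and 11.4 CPM in CK (log2 fold change 1.27 ± 0.40, 1.44 without HS replicate 3, edgeR adjusted p = 0.033), and MBF1A was the third (log2 fold change 1.03, 1.095 without HS replicate 3). The membrane-bound factors of the unfolded protein response did not pass. BZIP28 had 32.8, 35.8 and 41.1 CPM in HS, against 29.0, 29.1 and 31.2 CPM in CK. BZIP60 had 32.3, 38.9 and 28.1 CPM in HS, against 49.9, 37.7 and 38.9 CPM in CK.

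Of folding genes of the endoplasmic reticulum, 3 of 21 genes tested rose and 2 fell, with a median log2 fold change of 0.38 (4, 2 and 0.38 without HS replicate 3), near the 11.3% and 10.5% of all genes tested. SDF2, a folding factor of the endoplasmic reticulum, had 113, 122 and 100.02 CPM in HS, against 41.6, 42.9 and 43.2 CPM in CK (log2 fold change 1.39 ± 0.22, 1.46 without HS replicate 3, edgeR adjusted p = 0.0015). BIP3, the stress-induced lumenal HSP70, had 0.310, 0.0825 and 0.149 CPM in HS, against 3.98, 4.19 and 3.20 CPM in CK (log2 fold change -4.32 ± 0.46, -4.19 without HS replicate 3, edgeR adjusted p = 0.00027). The constitutive BIP1 (492, 497 and 394 CPM in HS, against 286, 293 and 331 CPM in CK) did not pass, nor did BIP2. BIP1 and BIP2 are nearly alike and their counts uncertain. CRT3, a calreticulin, fell (log2 fold change -1.07, -1.04 without HS replicate 3), and PDIL2-2 and ATERDJ3B rose.

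None of 29 subunit genes of the 26S proteasome was a DEG with or without HS replicate 3. Of the autophagy genes, 2 of 16 genes tested rose and 0 fell, with a median log2 fold change of 0.35 (1, 0 and 0.51 without HS replicate 3), against 11.3% and 10.5% of all genes tested. The risers were ATG8D (log2 fold change 1.32, 1.52 without HS replicate 3) and ATG8B (1.08 and 0.94), the second of which lost its call without HS replicate 3. Both encode ubiquitin-like proteins of the autophagosome membrane. Of the SR splicing factors, 5 of 19 genes tested rose and 0 fell, with a median log2 fold change of 0.35 (4, 1 and 0.30 without HS replicate 3). SR30 had 259, 249 and 266 CPM in HS, against 73.0, 73.0 and 69.2 CPM in CK (log2 fold change 1.85 ± 0.17, 1.82 without HS replicate 3, edgeR adjusted p = 0.00017). SR34b had 65.4, 69.7 and 94.9 CPM in HS, against 21.8, 19.6 and 17.5 CPM in CK (log2 fold change 1.96 ± 0.17, 1.78 without HS replicate 3, edgeR adjusted p = 0.00014). SR45a, known as heat and light induced, had 84.6, 89.1 and 146 CPM in HS, against 34.7, 34.1 and 40.4 CPM in CK (log2 fold change 1.55, 1.26 without HS replicate 3). No HS library of these 3 genes fell into the CK range. RS31a and RS2Z33 also rose.

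Among antioxidant enzymes, 8 of 28 genes tested rose and 1 fell, with a median log2 fold change of 0.47 (9, 2 and 0.62 without HS replicate 3). APX2, a cytosolic ascorbate peroxidase and known target of heat shock factors, had 38.1, 34.6 and 52.2 CPM in HS, against 0.0463, 0 and 0 CPM in CK (at least 248-fold higher in HS, at least 217-fold higher without HS replicate 3). APX1, the main cytosolic form, had 528, 533 and 435 CPM in HS, against 380.3, 447 and 481 CPM in CK and did not pass. CSD3, the peroxisomal copper/zinc superoxide dismutase, had 86.6, 96.4 and 69.5 CPM in HS, against 19.1, 20.4 and 17.5 CPM in CK (log2 fold change 2.15 ± 0.15, 2.27 without HS replicate 3, edgeR adjusted p = 4.2e-05). APX2 and CSD3 separated the groups, and APX1 did not. FSD1, an iron superoxide dismutase, passed with 913, 899 and 254 CPM in HS, against 141, 259 and 251 CPM in CK (log2 fold change 1.67 ± 0.51, 2.06 without HS replicate 3, edgeR adjusted p = 0.03), but HS replicate 3 lay within the range of CK. GPX1, a chloroplast glutathione peroxidase, had 584, 543 and 231 CPM in HS, against 106, 176 and 147 CPM in CK (log2 fold change 1.66, 1.98 without HS replicate 3). MDAR6, a monodehydroascorbate reductase, was the 1 that fell (log2 fold change -1.22, -1.22 without HS replicate 3). Of the tau class glutathione transferases, which conjugate toxic compounds, 3 of 18 genes tested rose and 6 fell, with a median log2 fold change of -0.29 (3, 6 and -0.35 without HS replicate 3). ERD9 had 60.9, 53.2 and 24.6 CPM in HS, against 5.60, 7.12 and 6.72 CPM in CK (log2 fold change 2.83, 3.14 without HS replicate 3). GSTU27 had 14.0, 13.9 and 14.6 CPM in HS, against 45.5, 41.7 and 49.6 CPM in CK (log2 fold change -1.69, -1.71 without HS replicate 3).

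Many abscisic acid genes rose. Of the list, 15 of 30 genes tested rose and 3 fell, with a median log2 fold change of 0.91 (16, 4 and 1.19 without HS replicate 3). The risers covered synthesis, breakdown and signalling. NCED3, which makes the rate-limiting cleavage in synthesis, had 61.1, 55.9 and 42.2 CPM in HS, against 7.03, 7.29 and 8.38 CPM in CK (log2 fold change 2.81 ± 0.57, 2.95 without HS replicate 3, edgeR adjusted p = 0.0049), and the catabolic hydroxylases CYP707A1, CYP707A2 and CYP707A4 rose too, by log2 fold changes of 1.74, 1.47 and 2.40 (1.76, 1.59 and 2.34 without HS replicate 3). HAI1, a clade A protein phosphatase that dampens the signal, had 194, 291 and 190.5 CPM in HS, against 22.9, 15.5 and 15.67 CPM in CK (log2 fold change 3.64 ± 0.31, 3.75 without HS replicate 3, edgeR adjusted p = 0.00011). HAI2 had 190.3, 218 and 142 CPM in HS, against 23.2, 18.6 and 16.8 CPM in CK (log2 fold change 3.23, 3.38 without HS replicate 3), and HAB1, ABI1, ABI2 and PP2CA of the same clade also rose (log2 fold changes 2.56, 1.55, 1.62 and 1.08, or 2.78, 1.75, 1.61 and 1.33 without HS replicate 3). Phosphatase, synthesis and breakdown genes of the hormone thus rose side by side. ABF3, a factor that binds abscisic acid response elements, had 404, 380.4 and 526 CPM in HS, against 78.7, 77.6 and 65.3 CPM in CK (log2 fold change 2.56, 2.41 without HS replicate 3).

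Of the abscisic acid output genes, RD20, a caleosin of lipid bodies, had 601, 449 and 357 CPM in HS, against 49.7, 56.0 and 60.9 CPM in CK (log2 fold change 3.08 ± 0.25, 3.24 without HS replicate 3, edgeR adjusted p = 9.4e-05). LTI65 had 34.4, 53.0 and 41.6 CPM in HS, against 6.85, 5.80 and 6.27 CPM in CK (log2 fold change 2.77 ± 0.31, 2.79 without HS replicate 3, edgeR adjusted p = 0.00035). The members that fell were LTI30, COR15B and LTI78, also known from cold, while the cold-associated COR15A, COR47, ERD10 and KIN1 were not DEGs with all replicates. LTI30, a dehydrin, had 2.33, 2.23 and 3.05 CPM in HS, against 23.1, 22.5 and 22.6 CPM in CK (log2 fold change -3.16, -3.31 without HS replicate 3). COR15B, a chloroplast cold protein, had 159.6, 208 and 72.4 CPM in HS, against 413, 813 and 756 CPM in CK (log2 fold change -2.17, -1.84 without HS replicate 3). LTI78 fell (log2 fold change -1.28, -1.16 without HS replicate 3) but lost its call without HS replicate 3.

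The raffinose family sugars are osmoprotectants made from galactinol. Of this list, 4 of 9 genes tested rose and 1 fell, with a median log2 fold change of 0.84 (5, 1 and 1.05 without HS replicate 3). GolS1, the heat-induced galactinol synthase, had 289.9, 318 and 332 CPM in HS, against 9.49, 10.4 and 6.40 CPM in CK (log2 fold change 5.15 ± 0.22, 5.11 without HS replicate 3, edgeR adjusted p = 4.4e-06). GolS2, the drought-induced one, had 459.7, 388 and 218 CPM in HS, against 106, 137 and 90.9 CPM in CK (log2 fold change 1.68 ± 0.44, 1.93 without HS replicate 3, edgeR adjusted p = 0.016). Both were above CK in every HS library. GolS3, the cold-induced one, had 0.621, 0.165 and 0.968 CPM in HS, against 3.33, 12.1 and 7.55 CPM in CK (log2 fold change -3.67, -4.23 without HS replicate 3). MIPS2, which makes the inositol precursor, had 61.5, 40.3 and 131 CPM in HS, against 21.5, 20.5 and 15.99 CPM in CK (log2 fold change 2.01, 1.39 without HS replicate 3), highest in HS replicate 3.

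Of the wax and cutin genes, 6 of 23 genes tested rose and 4 fell, with a median log2 fold change of 0.20 (9, 5 and 0.46 without HS replicate 3), and the per-library medians against the CK mean were 0.57, 0.38 and -0.39 (log2 CPM) in HS replicates 1, 2 and 3, so HS replicate 3 went against the others. KCS2, an elongase of very long chain fatty acids, had 166, 162 and 50.8 CPM in HS, against 5.37, 6.20 and 5.44 CPM in CK (log2 fold change 4.48 ± 0.46, 4.86 without HS replicate 3, edgeR adjusted p = 0.00024). MYB96, a drought-responsive activator of wax synthesis, had 127, 122 and 51.6 CPM in HS, against 19.1, 14.6 and 14.9 CPM in CK (log2 fold change 2.63 ± 0.38, 2.94 without HS replicate 3, edgeR adjusted p = 0.0011). CER1, of alkane synthesis, had 1004, 939.8 and 579 CPM in HS, against 159.8, 221 and 228 CPM in CK (log2 fold change 2.05, 2.26 without HS replicate 3). At these 3 genes HS replicate 3 was the lowest HS library and still above CK. LACS1, a long chain acyl-CoA synthetase of the same pathway, had 4.19, 3.46 and 23.46 CPM in HS, against 126, 117 and 141 CPM in CK (log2 fold change -3.62, -5.06 without HS replicate 3). AT1G62510, whose promoter is printed above, had 1585, 1432 and 431 CPM in HS, against 2.08, 1.38 and 0.831 CPM in CK (log2 fold change 9.62, 10.001 without HS replicate 3). LTP4, an abscisic acid and salt responsive lipid transfer protein, had 6698, 6535 and 2038 CPM in HS, against 10.13, 10.2 and 8.57 CPM in CK (log2 fold change 9.05, 9.42 without HS replicate 3), and reads of it and its close copy LTP3 could have been split, so its count is uncertain.

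Aquaporins, the water channels, gave a mixed picture, in which 6 of 25 genes tested rose and 2 fell, with a median log2 fold change of 0.13 (6, 7 and -0.17 without HS replicate 3). RD28, a plasma membrane aquaporin, had 96.1, 64.3 and 144 CPM in HS, against 10.6, 10.103 and 11.1 CPM in CK (log2 fold change 3.25 ± 0.32, 2.92 without HS replicate 3, edgeR adjusted p = 0.00019). PIP2A had 1739.6, 1418 and 967 CPM in HS, against 272, 423 and 304 CPM in CK (log2 fold change 2.05 ± 0.29, 2.24 without HS replicate 3, edgeR adjusted p = 0.00098). Of membrane lipid genes, 2 of 17 genes tested rose and 2 fell, with a median log2 fold change of 0.38 (2, 3 and 0.51 without HS replicate 3). With all replicates these counts were near the 11.3% higher and 10.5% lower of all genes tested. FADA, which sets the trans double bond of chloroplast phosphatidylglycerol, had 68.6, 63.5 and 28.1 CPM in HS, against 3.93, 5.28 and 4.99 CPM in CK (log2 fold change 3.50, 3.81 without HS replicate 3).

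Salicylic acid immunity had the lowest median of the gene groups examined, tissue markers aside. Of this list, 0 of 21 genes tested rose and 15 fell, with a median log2 fold change of -2.80 (0, 17 and -3.27 without HS replicate 3), against 10.5% lower over all genes tested. The per-library medians against the CK mean were -2.98, -3.30 and -2.23 (log2 CPM) in HS replicates 1, 2 and 3, all below the CK libraries. At the top of the pathway, EDS1, a hub of resistance signalling, had 9.78, 8.50 and 10.6 CPM in HS, against 43.4, 43.1 and 39.1 CPM in CK (log2 fold change -2.12 ± 0.16, -2.20 without HS replicate 3, edgeR adjusted p = 7e-05). SARD1, which switches on salicylic acid synthesis, had 2.79, 2.64 and 2.76 CPM in HS, against 20.5, 18.5 and 18.3 CPM in CK (log2 fold change -2.80 ± 0.28, -2.81 without HS replicate 3, edgeR adjusted p = 0.00022). Its relative CBP60G had 0.310, 1.73 and 1.12 CPM in HS, against 28.8, 14.7 and 16.8 CPM in CK (log2 fold change -4.25, -4.31 without HS replicate 3). The HS libraries lay close together at EDS1 and SARD1 and below CK at all 3. EDS16, the isochorismate synthase of the pathway, had 6.75, 4.54 and 6.48 CPM in HS, against 11.8, 10.8 and 7.80 CPM in CK, which passed the adjusted p but not the 2-fold threshold. PBS3, the next enzyme, had 0.621, 0.660 and 1.04 CPM in HS, against 9.16, 5.22 and 4.29 CPM in CK (log2 fold change -2.99, -3.27 without HS replicate 3).

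Downstream of salicylic acid, NPR1, its receptor, had 27.2, 25.99 and 25.4 CPM in HS, against 35.5, 42.0 and 43.1 CPM in CK and did not reach 2-fold. WRKY70 had 21.7, 17.2 and 23.46 CPM in HS, against 167, 193 and 218 CPM in CK (log2 fold change -3.21 ± 0.23, -3.31 without HS replicate 3, edgeR adjusted p = 4.7e-05). WRKY54 had 2.096, 0.412 and 3.43 CPM in HS, against 41.8, 58.2 and 55.2 CPM in CK (log2 fold change -4.69 ± 0.51, -5.33 without HS replicate 3, edgeR adjusted p = 0.0003). NIMIN1, which binds NPR1, had 0, 0.247 and 0.372 CPM in HS, against 16.6, 11.997 and 15.5 CPM in CK (log2 fold change -6.08, at least 61.2-fold lower without HS replicate 3). The HS libraries lay far below CK at both WRKY genes and at NIMIN1. LURP1, induced by oomycete infection, had 10.7, 7.34 and 3.57 CPM in HS, against 556, 808 and 755 CPM in CK (log2 fold change -6.61, -6.29 without HS replicate 3). BG3, a beta-1,3-glucanase, had 0, 0 and 0.0745 CPM in HS, against 9.86, 15.96 and 13.4 CPM in CK (at least 55.8-fold lower in HS, at least 54.5-fold lower without HS replicate 3). PR1, the classic marker of the pathway, had 0.233, 0.578 and 4.54 CPM in HS, against 30.9, 12.7 and 2.88 CPM in CK and did not pass, the groups overlapping through HS replicate 3 and CK replicate 3. Most of the genes described, from the head of the pathway to its output, fell, while NPR1, EDS16 and PR1 were not DEGs with all replicates, and PR1 was one lower in HS without HS replicate 3.

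Other arms of immunity fell in part. Of pattern-triggered immunity genes, 0 of 19 genes tested rose and 6 fell, with a median log2 fold change of -0.68 (0, 7 and -0.77 without HS replicate 3). MPK11, a kinase of early signalling, had 0.0776, 0.165 and 0.0745 CPM in HS, against 9.58, 6.54 and 6.91 CPM in CK (at least 32.7-fold lower in HS, at least 31.96-fold lower without HS replicate 3). MPK3, of the same cascade, had 40.4, 39.4 and 21.7 CPM in HS, against 108, 108 and 104 CPM in CK (log2 fold change -1.66 ± 0.24, -1.42 without HS replicate 3, edgeR adjusted p = 0.001). SOBIR1, a receptor-like kinase, had 24.1, 29.7 and 20.5 CPM in HS, against 97.3, 83.6 and 90.5 CPM in CK (log2 fold change -1.87 ± 0.17, -1.75 without HS replicate 3, edgeR adjusted p = 0.00016). All 3 were lower in every HS library than in any CK library. Among the WRKY factors, 0 of 46 genes tested rose and 11 fell, with a median log2 fold change of -0.39 (1, 19 and -0.84 without HS replicate 3). WRKY38, a repressor of basal defence, had 0, 0 and 0.149 CPM in HS, against 5.60, 8.04 and 7.10 CPM in CK (at least 29.5-fold lower in HS, at least 28.8-fold lower without HS replicate 3). WRKY53, a factor of defence and senescence, had 1.79, 2.56 and 3.13 CPM in HS, against 12.03, 8.61 and 10.5 CPM in CK (log2 fold change -2.05, -2.26 without HS replicate 3). Of cysteine-rich receptor-like kinases, 4 of 31 genes tested rose and 12 fell, with a median log2 fold change of -0.90 (4, 10 and -0.70 without HS replicate 3), the risers being CRK12, CRK18, CRK22 and CRK42. ARCK1, a kinase of this family, had 0.931, 1.07 and 0.819 CPM in HS, against 16.4, 17.57 and 18.04 CPM in CK (log2 fold change -4.19, -4.10 without HS replicate 3). CRK14 had 1.71, 1.48 and 1.64 CPM in HS, against 12.3, 18.4 and 15.5 CPM in CK (log2 fold change -3.25, -3.26 without HS replicate 3).

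Of the intracellular NLR receptors, 5 of 112 genes tested rose and 14 fell, with a median log2 fold change of -0.21 (6, 17 and -0.19 without HS replicate 3), against 11.3% and 10.5% of all genes tested. AT3G04210, a truncated receptor with TIR and NBS domains, had 8.15, 6.43 and 3.28 CPM in HS, against 85.2, 128 and 109 CPM in CK (log2 fold change -4.17 ± 0.34, -3.88 without HS replicate 3, edgeR adjusted p = 8.9e-05). Many of these genes lie in clusters of near copies, whose counts are uncertain. Of the jasmonate genes, 1 of 32 genes tested rose and 5 fell, with a median log2 fold change of -0.26 (3, 7 and -0.18 without HS replicate 3). PDF1.2, a defensin, had 1.16, 0.412 and 0 CPM in HS, against 46.6, 20.3 and 12.98 CPM in CK (log2 fold change -5.65 ± 0.86, -5.05 without HS replicate 3, edgeR adjusted p = 0.0014). PDF1.2b and PDF1.2c fell too, and reads of the 3 close copies cannot be assigned with certainty. VSP2, a storage and wound protein, was the 1 that rose, with 1171, 735 and 1122 CPM in HS, against 350.5, 228 and 314 CPM in CK (log2 fold change 1.76). It lost its call without HS replicate 3, though HS replicates 1 and 2 both lay above every CK library. Glucosinolate and camalexin genes divided evenly, in that 5 of 27 genes tested rose and 5 fell, with a median log2 fold change of 0.44 (7, 4 and 0.50 without HS replicate 3). CYP83B1, of indole glucosinolate synthesis, had 93.0, 85.7 and 73.1 CPM in HS, against 284, 295 and 278 CPM in CK (log2 fold change -1.77, -1.68 without HS replicate 3). MYB29, which activates the aliphatic branch, had 59.999, 55.6 and 98.68 CPM in HS, against 19.6, 26.7 and 20.9 CPM in CK (log2 fold change 1.67, 1.37 without HS replicate 3).

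**Figure D4:**
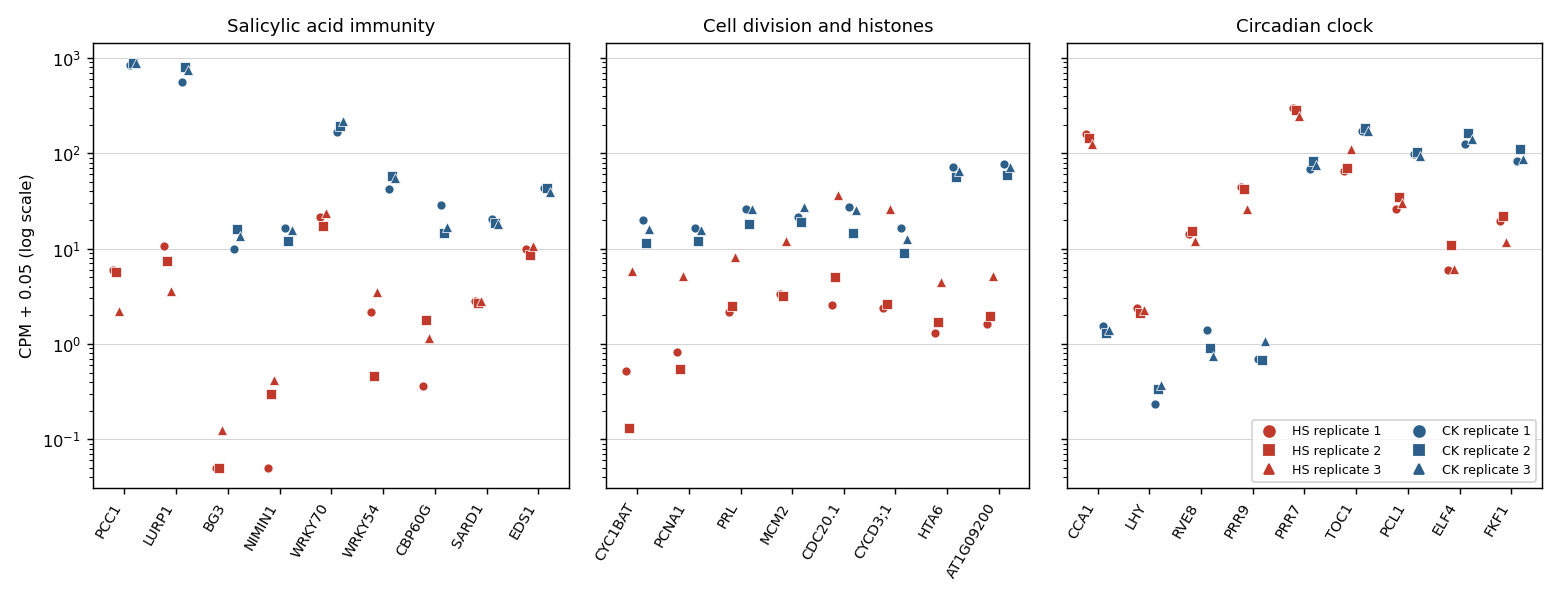
CPM plus 0.05 on a log axis for salicylic acid immunity genes, cell division and histone genes, and clock genes, with the 3 HS libraries left of the 3 CK libraries for each gene. HS replicate 3 lies with the other HS libraries at the immunity and clock genes, but at or above the CK libraries at CDC20.1 and CYCD3;1.

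Many cell division genes fell, and HS replicate 3 stood apart from the other HS libraries at many of them. Of the list, 0 of 26 genes tested rose and 16 fell, with a median log2 fold change of -1.94 (0, 24 and -2.83 without HS replicate 3). The per-library medians were -2.67, -2.80 and -0.93 (log2 CPM against the CK mean) in HS replicates 1, 2 and 3. TSO2, a subunit of ribonucleotide reductase, which makes DNA precursors, had 8.07, 6.19 and 10.4 CPM in HS, against 53.3, 43.8 and 55.4 CPM in CK (log2 fold change -2.62 ± 0.42, -2.83 without HS replicate 3, edgeR adjusted p = 0.0018). PRL, the MCM7 subunit of the replicative helicase, had 2.096, 2.47 and 8.12 CPM in HS, against 25.9, 18.3 and 26.3 CPM in CK (log2 fold change -2.46 ± 0.57, -3.36 without HS replicate 3, edgeR adjusted p = 0.0092). HS replicate 3 was the highest HS library at both. PCNA1, the sliding clamp of DNA polymerase, had 0.776, 0.495 and 5.06 CPM in HS, against 16.3, 11.9 and 15.67 CPM in CK (log2 fold change -2.77, -4.50 without HS replicate 3). CYC1BAT, a B-type cyclin of mitosis, had 0.466, 0.0825 and 5.81 CPM in HS, against 19.99, 11.4 and 15.9 CPM in CK (log2 fold change -2.87, -5.78 without HS replicate 3). CDC20.1, an activator of the anaphase-promoting complex, had 2.48, 4.95 and 36.6 CPM in HS, against 27.1, 14.6 and 25.5 CPM in CK. CYCD3;1, a cyclin of cell cycle entry, had 2.33, 2.56 and 25.8 CPM in HS, against 16.4, 8.84 and 12.6 CPM in CK. The last 2 genes did not pass with all libraries, HS replicate 3 lying above the CK libraries, and both were DEGs lower in HS without it (-2.59 and -2.37 on the log2 scale). Some genes of the shoot meristem and young epidermis split likewise, such as STM, KNAT1, SPCH and PDF1 (AT2G42840). They were not DEGs with all replicates. Without HS replicate 3 they were at least 35.6-fold, 30.5-fold, 21.6-fold and 645-fold lower in HS, in that order. Markers of these tissues were not summed. The part of young tissue in the falls of these and the next groups was not tested.

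Among histone genes, 1 of 42 genes tested rose and 26 fell, with a median log2 fold change of -1.24 (1, 25 and -1.43 without HS replicate 3). Their per-library medians did not show this split (-1.42, -1.47 and -1.45 in HS replicates 1, 2 and 3). HTA6, a histone H2A, had 1.24, 1.65 and 4.47 CPM in HS, against 71.3, 56.1 and 65.0 CPM in CK (log2 fold change -4.69 ± 0.62, -5.47 without HS replicate 3, edgeR adjusted p = 0.00069). AT1G09200, a histone H3, had 1.55, 1.90 and 5.14 CPM in HS, against 77.4, 59.7 and 71.7 CPM in CK (log2 fold change -4.59 ± 0.56, -5.33 without HS replicate 3, edgeR adjusted p = 0.00048). Histone copies are nearly alike and their counts uncertain. The 1 that rose was HTA4.

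Of genes with a ribosomal protein in their product name, 9 of 274 genes tested rose and 74 fell, with a median log2 fold change of -0.68 (9, 138 and -1.03 without HS replicate 3) and per-library medians of -1.08, -0.94 and -0.24. The group took 1.529%, 1.682% and 3.127% of the counts in HS, against 4.038%, 3.292% and 3.867% in CK, so HS replicate 3 lay close to CK. AT2G25210, of the L39 family, had 3.49, 3.22 and 10.7 CPM in HS, against 90.8, 86.6 and 105 CPM in CK (log2 fold change -4.01 ± 0.55, -4.80 without HS replicate 3, edgeR adjusted p = 0.00087). AT2G40205, of the L41 family, had 0.776, 1.40 and 2.98 CPM in HS, against 25.6, 20.03 and 25.97 CPM in CK (log2 fold change -3.78 ± 0.60, -4.45 without HS replicate 3, edgeR adjusted p = 0.0016). Being chosen by product name, the list holds cytosolic members and also plastid and mitochondrial ribosomal proteins, such as RPS9, SSR16 and HLL, and some translation factors. The 9 that rose include AT2G07696 and AT2G07734, which lie in the stretch of chromosome 2 that carries a copy of mitochondrial DNA. Of 16 ribosome biogenesis genes 1 fell, FIB2, a fibrillarin that methylates ribosomal RNA. It had 7.99, 5.61 and 18.5 CPM in HS, against 43.7, 29.96 and 45.5 CPM in CK (log2 fold change -1.89, -2.54 without HS replicate 3).

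**Figure D5:**
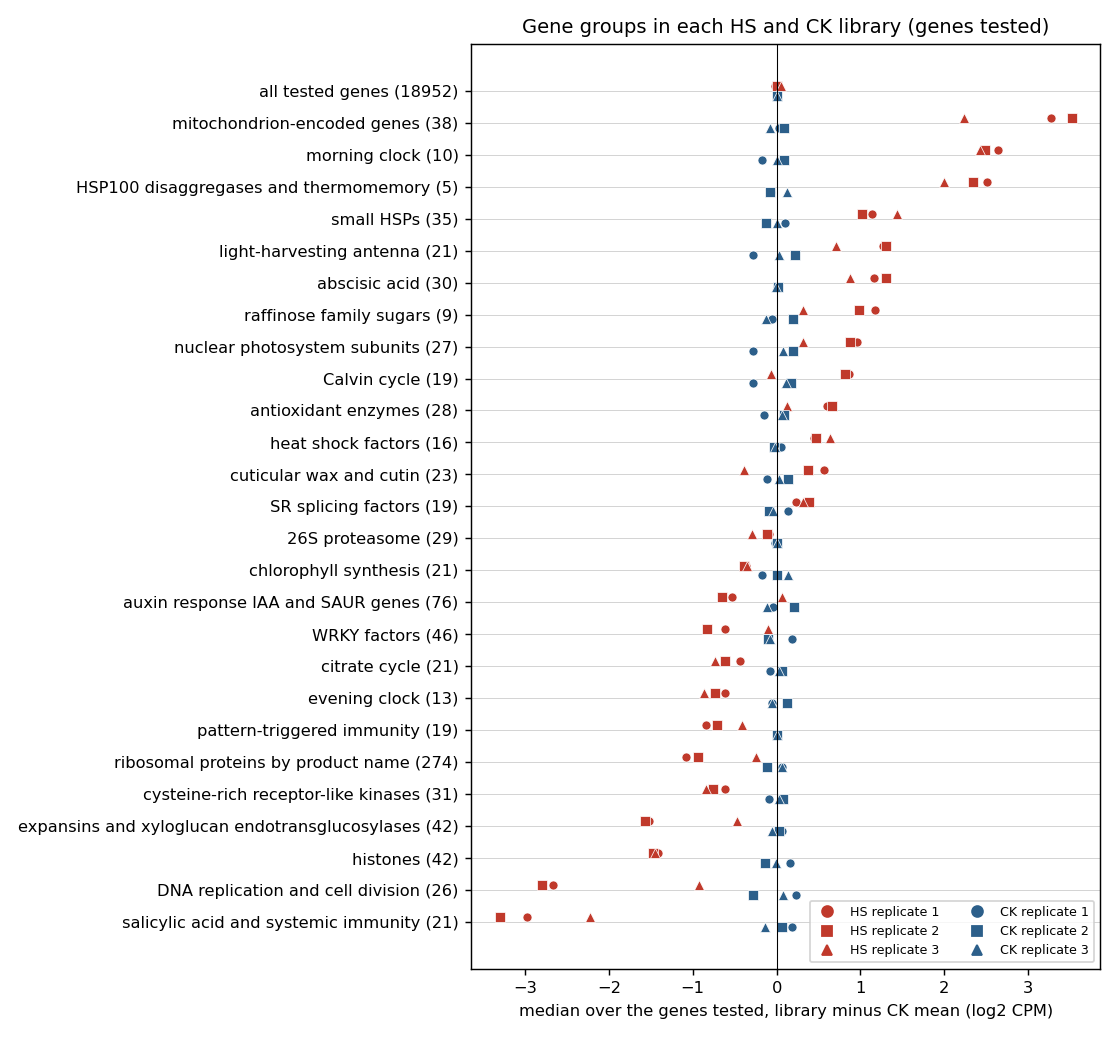
Median over the genes tested in each group of the log2 CPM of a library minus the CK mean, for the 3 HS libraries (red) and the 3 CK libraries (blue), with the number tested in brackets. HS replicate 3 lies with HS replicates 1 and 2 for the morning clock and histones, and between them and CK for cell division, wall loosening and ribosomal genes.

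More wall loosening genes fell than rose. Of expansins and xyloglucan endotransglucosylases, 4 of 42 genes tested rose and 14 fell, with a median log2 fold change of -0.98 (4, 23 and -1.63 without HS replicate 3). The 14 include PNP-A (log2 fold change -4.04 with all replicates), which is named for neither family and is counted in the salicylic acid list as well. XTH9 had 4.66, 4.45 and 22.7 CPM in HS, against 262, 124 and 184 CPM in CK (log2 fold change -4.16 ± 0.95, -5.38 without HS replicate 3, edgeR adjusted p = 0.0086). XTH16 had 0, 0.0825 and 3.35 CPM in HS, against 21.6, 13.8 and 17.9 CPM in CK (log2 fold change -3.92 ± 1.13, at least 74.0-fold lower without HS replicate 3, edgeR adjusted p = 0.023), with at most 3 counts in HS replicates 1 and 2. XTH31 went the other way, with 105, 148 and 32.5 CPM in HS, against 8.61, 16.6 and 10.9 CPM in CK (log2 fold change 2.99, 3.40 without HS replicate 3), and XTH11, XTH32 and XTR6 also rose. AGP21, an arabinogalactan protein of the cell surface, had 1.09, 0.990 and 5.06 CPM in HS, against 127, 165 and 152 CPM in CK (log2 fold change -5.94, -7.14 without HS replicate 3).

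Of the auxin response IAA and SAUR genes, 6 of 76 genes tested rose and 9 fell, with a median log2 fold change of -0.46 (7, 27 and -0.77 without HS replicate 3), not far from the 11.3% and 10.5% of all genes tested. AT3G12830, a SAUR gene, had 2.02, 2.06 and 2.23 CPM in HS, against 16.6, 8.95 and 7.23 CPM in CK (log2 fold change -2.37 ± 0.47, -2.42 without HS replicate 3, edgeR adjusted p = 0.0045). Of gibberellin and brassinosteroid genes, 5 of 25 genes tested rose and 2 fell, with a median log2 fold change of 0.21 (7, 4 and -0.04 without HS replicate 3). GA3OX1, which makes the last step to active gibberellin, had 244, 217 and 97.6 CPM in HS, against 2.59, 3.62 and 2.56 CPM in CK (log2 fold change 5.99 ± 0.38, 6.30 without HS replicate 3, edgeR adjusted p = 2.6e-05). The DELLA genes RGL2 and RGL3, repressors of gibberellin response, also rose (log2 fold changes 1.54 and 1.08, or 1.499 and 1.02 without HS replicate 3), while the DELLA gene GAI fell (log2 fold change -1.003, -1.42 without HS replicate 3).

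Many nuclear photosynthesis genes rose, and none of the antenna, photosystem and Calvin cycle genes fell with all replicates. Of the light-harvesting antenna genes, 11 of 21 genes tested rose and 0 fell, with a median log2 fold change of 1.13 (12, 1 and 1.29 without HS replicate 3). Of the photosystem subunits, 9 of 27 genes tested rose and 0 fell, with a median log2 fold change of 0.72 (12, 0 and 0.93 without HS replicate 3). Of the Calvin cycle genes, 5 of 19 genes tested rose and 0 fell, with a median log2 fold change of 0.58 (5, 0 and 0.84 without HS replicate 3). CAB2, an antenna protein of photosystem II, had 4771, 4821 and 4009.5 CPM in HS, against 489.6, 756 and 783 CPM in CK (log2 fold change 2.75 ± 0.27, 2.83 without HS replicate 3, edgeR adjusted p = 0.0002), and reads of it and its copies CAB1 and CAB3 could have been split. LHCB2.1 had 3013, 2724 and 2062 CPM in HS, against 274, 556 and 413 CPM in CK (log2 fold change 2.65 ± 0.38, 2.79 without HS replicate 3, edgeR adjusted p = 0.00099). CAB2 and LHCB2.1 were higher in every HS library than in any CK library, whereas CAB1, a near copy of CAB2, had 11055, 10969.8 and 11513 CPM in HS, against 14089, 16599.9 and 14632 CPM in CK. PSBY, a small photosystem II subunit, had 2319, 2428 and 1537 CPM in HS, against 521, 680.0 and 654 CPM in CK (log2 fold change 1.76, 1.94 without HS replicate 3). FBA1, a chloroplast aldolase of the Calvin cycle, had 3391, 3128 and 1349 CPM in HS, against 314, 469 and 404 CPM in CK (log2 fold change 2.73, 3.04 without HS replicate 3). RCA, which keeps Rubisco active and is known to be heat sensitive, had 12092, 10746 and 5718 CPM in HS, against 2442, 3488 and 3101 CPM in CK (log2 fold change 1.66, 1.92 without HS replicate 3). HS replicate 3 was the lowest HS library at each of these risen genes and still above CK. By their medians over the list, HS replicates 1, 2 and 3 lay at 0.86, 0.81 and -0.07 (log2 CPM against the CK mean) for Calvin cycle genes, so HS replicate 3 did not lie above CK there, and at 1.27, 1.31 and 0.71 for antenna genes. The antenna genes took from 7.70% to 8.15% of the counts in HS and from 5.12% to 6.02% in CK. As the hour at which CK leaves were taken is not given, heat and hour of sampling cannot be told apart for photosynthesis genes.

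Of the chlorophyll synthesis genes, 2 of 21 genes tested rose and 1 fell, with a median log2 fold change of -0.45 (4, 2 and -0.38 without HS replicate 3). Over all genes tested, 11.3% rose and 10.5% fell. CRD1, a subunit of the cyclase, had 1757, 1797 and 1244 CPM in HS, against 323, 428 and 398 CPM in CK (log2 fold change 2.06 ± 0.25, 2.21 without HS replicate 3, edgeR adjusted p = 0.00052). GUN4, an activator of magnesium chelatase, had 218, 221 and 173 CPM in HS, against 59.8, 57.3 and 64.7 CPM in CK (log2 fold change 1.75 ± 0.20, 1.86 without HS replicate 3, edgeR adjusted p = 0.0004). GSA1, of the early tetrapyrrole steps, had 61.0, 58.8 and 60.8 CPM in HS, against 167, 175 and 196 CPM in CK (log2 fold change -1.57, -1.58 without HS replicate 3). These 3 separated the groups. Of the starch genes, 4 of 26 genes tested rose and 0 fell, with a median log2 fold change of -0.15 (6, 1 and 0.05 without HS replicate 3). GBSS1, which makes amylose, had 55.7, 46.3 and 49.2 CPM in HS, against 7.45, 5.45 and 5.37 CPM in CK (log2 fold change 3.04, 3.06 without HS replicate 3). AT3G23920, beta-amylase 1, had 335, 269.8 and 174 CPM in HS, against 75.8, 77.1 and 72.6 CPM in CK (log2 fold change 1.79, 2.01 without HS replicate 3). No starch gene was a DEG lower in HS with all replicates.

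Organelle genes are named by identifier only, since the annotation used here does not pair these identifiers with names. Of chloroplast-encoded genes, 16 of 82 genes tested rose and 17 fell, with a median log2 fold change of -0.16 (18, 19 and -0.23 without HS replicate 3). They took from 0.677% to 0.744% of the counts in HS and from 0.905% to 0.925% in CK. Of mitochondrion-encoded genes, 35 of 38 genes tested rose and 0 fell, with a median log2 fold change of 3.49 (35, 0 and 3.81 without HS replicate 3), or 3.30 with the 4 genes at or under 3 counts in CK put at their bound. ATMG01080 had 128, 139 and 39.4 CPM in HS, against 2.31, 2.93 and 2.75 CPM in CK (log2 fold change 5.26 ± 0.51, 5.65 without HS replicate 3, edgeR adjusted p = 0.0002). ATMG00630 had 12.4, 14.7 and 9.76 CPM in HS, against 0.139, 0.344 and 0.512 CPM in CK (log2 fold change 5.22 ± 0.50, 5.38 without HS replicate 3, edgeR adjusted p = 0.00018). Together the mitochondrion-encoded genes took 0.057%, 0.127% and 0.034% of the counts in HS, against 0.020%, 0.016% and 0.017% in CK, so the rise is within a small share of the counts. Of 46 tested genes with identifiers starting AT2G07, the stretch of chromosome 2 that includes the copy of mitochondrial DNA, 32 rose and 1 fell (35 and 3 without HS replicate 3). The 1 that fell, MCM5, is a replication gene, and reads of the 2 places cannot be told apart with certainty.

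Of the citrate cycle genes, 0 of 21 genes tested rose and 5 fell, with a median log2 fold change of -0.65 (1, 6 and -0.52 without HS replicate 3). IDH2, a subunit of isocitrate dehydrogenase, had 10.5, 9.24 and 10.3 CPM in HS, against 27.8, 31.1 and 25.97 CPM in CK (log2 fold change -1.50 ± 0.13, -1.52 without HS replicate 3, edgeR adjusted p = 0.00012). SDH2-2, of succinate dehydrogenase, had 10.9, 12.5 and 11.3 CPM in HS, against 27.3, 27.3 and 28.5 CPM in CK (log2 fold change -1.26 ± 0.17, -1.24 without HS replicate 3, edgeR adjusted p = 0.00071). FUM1, the mitochondrial fumarase, also fell (log2 fold change -1.25, -1.58 without HS replicate 3). The other fallers were LPD1, a dihydrolipoyl dehydrogenase that the authors place in pyruvate metabolism, and ACLB-2, of ATP-citrate synthase. Their log2 fold changes were -1.72 and -1.50 with all replicates, and both stayed DEGs lower without HS replicate 3. The list is thus wider than the steps of the cycle itself. Of the genes of alternative respiration, the non-phosphorylating routes of the mitochondrion, 3 of 10 genes tested rose and 2 fell, with a median log2 fold change of 0.21 (3, 2 and -0.07 without HS replicate 3). NDA1, an internal NAD(P)H dehydrogenase induced by light, had 96.6, 73.2 and 32.1 CPM in HS, against 3.33, 5.91 and 4.09 CPM in CK (log2 fold change 3.92, 4.26 without HS replicate 3). NDA1 was lowest of the HS libraries in HS replicate 3 and above CK in all. AOX1A, the alternative oxidase, passed with 75.8, 66.0 and 25.4 CPM in HS, against 20.7, 26.3 and 23.9 CPM in CK (log2 fold change 1.24, 1.59 without HS replicate 3), but HS replicate 3 lay within the range of CK. UCP5, an uncoupling protein, had 18.7, 35.1 and 19.9 CPM in HS, against 95.3, 62.0 and 63.4 CPM in CK (log2 fold change -1.58, -1.45 without HS replicate 3).

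Of the sugar starvation genes, 1 of 16 genes tested rose and 2 fell, with a median log2 fold change of 0.07 (2, 5 and -0.69 without HS replicate 3), against 11.3% and 10.5% of all genes tested. SAG29, also known as the sugar exporter SWEET15, had 261, 213 and 144 CPM in HS, against 0.324, 0.172 and 0.0640 CPM in CK (log2 fold change 9.95 ± 0.44, 10.15 without HS replicate 3, edgeR adjusted p = 4.4e-06). STP1, a hexose importer, had 6.91, 7.84 and 18.5 CPM in HS, against 67.6, 72.6 and 65.6 CPM in CK (log2 fold change -2.62 ± 0.53, -3.22 without HS replicate 3, edgeR adjusted p = 0.0052). Of flavonoid genes, 2 of 22 genes tested rose and 2 fell, with a median log2 fold change of -0.12 (2, 9 and -1.0 without HS replicate 3). With all replicates these counts were near the 11.3% and 10.5% of all genes tested. AT1G56650, production of anthocyanin pigment 1, a MYB activator, had 74.98, 80.4 and 27.5 CPM in HS, against 6.34, 4.42 and 4.67 CPM in CK (log2 fold change 3.56, 3.91 without HS replicate 3). FLS1, flavonol synthase, had 2.096, 2.14 and 2.53 CPM in HS, against 23.55, 8.84 and 15.5 CPM in CK (log2 fold change -2.82, -2.91 without HS replicate 3).

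Most morning clock genes rose and none of the evening ones did. Of the morning genes, 9 of 10 genes tested rose and 1 fell, with a median log2 fold change of 2.74 (8, 1 and 2.82 without HS replicate 3). Of the evening genes, 0 of 13 genes tested rose and 6 fell, with a median log2 fold change of -0.67 (0, 6 and -0.68 without HS replicate 3). CCA1, a morning repressor of evening genes, had 159.8, 146 and 125 CPM in HS, against 1.48, 1.26 and 1.34 CPM in CK (log2 fold change 6.71 ± 0.51, 6.79 without HS replicate 3, edgeR adjusted p = 7e-05). Its partner LHY had 2.33, 2.06 and 2.23 CPM in HS, against 0.185, 0.287 and 0.320 CPM in CK (log2 fold change 3.04 ± 0.40, 3.04 without HS replicate 3, edgeR adjusted p = 0.0007). PRR9, a day repressor, had 44.6, 42.2 and 26.1 CPM in HS, against 0.648, 0.631 and 1.02 CPM in CK (log2 fold change 5.62, 5.83 without HS replicate 3). These morning and day genes were many times higher in every HS library. ELF4, of the evening complex, had 5.90, 10.8 and 6.11 CPM in HS, against 124, 162 and 141 CPM in CK (log2 fold change -4.23, -4.09 without HS replicate 3). PCL1, also called LUX, of the same complex, had 26.2, 35.1 and 30.3 CPM in HS, against 98.2, 104 and 92.8 CPM in CK (log2 fold change -1.69, -1.68 without HS replicate 3). TOC1, the evening repressor of CCA1, had 65.8, 69.4 and 109.5 CPM in HS, against 169, 185 and 173 CPM in CK (log2 fold change -1.11, -1.38 without HS replicate 3). The 3 evening genes were lower in every HS library, TOC1 least so in HS replicate 3. GI, which peaks late in the day, had 157, 145 and 126 CPM in HS, against 125, 149 and 133 CPM in CK and did not pass. RVE2 was the 1 morning gene that fell (log2 fold change -2.02, -1.94 without HS replicate 3). Since the hour at which CK leaves were taken is not given, heat and hour of sampling cannot be told apart for these genes. The same holds for any other gene described here whose level follows the hour of day.

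Of light and thermomorphogenesis genes, 6 of 22 genes tested rose and 0 fell, with a median log2 fold change of 0.66 (6, 1 and 0.66 without HS replicate 3). BBX18, a B-box regulator of thermomorphogenesis, had 73.3, 71.4 and 32.2 CPM in HS, against 3.10, 4.94 and 3.45 CPM in CK (log2 fold change 3.95 ± 0.37, 4.24 without HS replicate 3, edgeR adjusted p = 0.00017). PIF3, a phytochrome interacting factor, had 76.8, 74.9 and 61.5 CPM in HS, against 23.598, 20.5 and 20.5 CPM in CK (log2 fold change 1.72 ± 0.15, 1.81 without HS replicate 3, edgeR adjusted p = 0.00013). HB-2, a shade-induced homeobox factor, had 38.9, 40.8 and 45.8 CPM in HS, against 17.3, 14.1 and 12.1 CPM in CK (log2 fold change 1.52, 1.45 without HS replicate 3). No member fell with all replicates.

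Some of the largest changes lay outside these groups. AT1G72660, a P-loop nucleoside triphosphate hydrolase, had 59.9, 55.1 and 68.4 CPM in HS, against 0.0463, 0.115 and 0.128 CPM in CK (at least 365-fold higher in HS, at least 343-fold higher without HS replicate 3). AT5G07330, which the annotation names as an iron-sulfur cluster protein, had 11.3, 13.03 and 17.1 CPM in HS, against 0, 0.0574 and 0 CPM in CK (at least 82.5-fold higher in HS, at least 72.7-fold higher without HS replicate 3). AT3G22235, annotated as a cysteine-rich transmembrane stress protein, had 28.3, 24.3 and 11.2 CPM in HS, against 1171, 1809.8 and 1753 CPM in CK (log2 fold change -6.21 ± 0.56, -5.91 without HS replicate 3, edgeR adjusted p = 0.00015). These genes were chosen by size of change among DEGs without overlap between HS and CK, so their separation is set by the choice. BT2, a nitrate and sugar responsive BTB protein, had 1.47, 2.47 and 5.66 CPM in HS, against 89.6, 132 and 194 CPM in CK (log2 fold change -5.43 ± 0.55, -6.13 without HS replicate 3, edgeR adjusted p = 0.00023). AT1G15125, a methyltransferase, had 0.621, 0.578 and 0.447 CPM in HS, against 32.5, 21.9 and 18.7 CPM in CK (log2 fold change -5.46, -5.33 without HS replicate 3). AT1G11850, of unknown function, had 0, 0 and 2.01 CPM in HS, against 30.6, 35.7 and 42.3 CPM in CK (log2 fold change -5.69, at least 151-fold lower without HS replicate 3), with at most 3 counts in HS replicates 1 and 2.

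Promoter motifs were counted over the same windows of 250 bases before to 50 after the start, on either strand, and no test was run. CACGTG, the G-box, was held by 14.47% of the DEGs higher in HS, 6.25% of the DEGs lower in HS and 8.97% of all promoters tested. ACGTGGC, an abscisic acid response element that can overlap the G-box, was held by 8.15%, 3.51% and 4.87% in that order. TTGACT, a W-box form that WRKY factors bind, was held by 18.16% of the higher DEGs, 27.13% of the lower DEGs and 21.43% of all. TTGACC, another W-box form, was held by 11.98%, 15.24% and 14.10%. The dehydration response elements ACCGAC and GCCGAC were held by 6.09%, 5.64% and 6.48%, and by 3.45%, 4.27% and 3.73%. The evening element AAAATATCT was held by 2.97%, 4.22% and 3.08%. GCCGAC and the evening element were most frequent in the lower DEGs. AAACCCTA, GGGCCC and GGCCCA, letters frequent at ribosomal protein genes, were each held by fewer higher and fewer lower DEGs than all promoters (GGCCCA by 16.67%, 17.78% and 19.50%). A missing match says only that these letters are not in this window.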

How the data were processed

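Leaf RNA of the HS, CK and warmed plants was sequenced on an Illumina platform. The authors deposited one table of raw counts per gene and library. Adapters, reads with unknown bases and reads of low quality were removed by the authors, and reads were mapped to TAIR10 with TopHat2. The submitters' processing notes also name CASAVA 1.8 and HTSeq 0.6.1. Neither the strand setting nor the treatment of reads with several places is given in the sources used here, so counts of overlapping, antisense and near-identical genes are uncertain. Columns were matched to samples by their names in the labels, and 0 columns of other series were present.

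A gene was kept where 3 or more of the 9 libraries reached 10 counts. Counts were scaled by TMM and fitted by edgeR 4.0.16 (R 4.3.3) with 1 coefficient per treatment over all 9 libraries, without a replicate block. HS was compared with CK by the quasi-likelihood test, and p-values were adjusted over all tested genes by Benjamini-Hochberg. DEGs were called at an adjusted p below 0.05 with a change of 2-fold or more. The fitted biological coefficient of variation was 0.273. Where every library of a group held at most 3 counts, the fold is a lower bound at 3 counts per library. Alternatives were DESeq2 1.42.0, limma 3.58.1 with a weight per library, other filters, thresholds and scaling, only the HS and CK libraries, a replicate block, and each replicate left out in turn. Tables and plots were made with Python 3.11.15, pandas 2.3.3 and matplotlib 3.10.9, and the fits were tested on simulated data.

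The HS and CK replicates share the numbers 1 to 3, and the labels do not say that a number marks a shared batch. Genes named were the 15 largest rises and 15 largest falls among DEGs whose higher group held 100 or more counts in all its libraries and did not overlap the other, and in each list up to 4 DEGs with the largest change and the same count minimum, with further members where a list needed them. Separation of the groups at the largest rises and falls is therefore set by the choice. Not all genes that this rule gives are described. Symbols, products and promoter windows came from RefSeq's TAIR10.1. The genes and lists were chosen with earlier results of these data known, and lists are described by counts and medians without a test.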

Additional observations from a re-analysis of the deposited data

How the results depend on the processing

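The number of DEGs lower in HS was 3623 with limma's weight per library, which gave HS replicate 3 the lowest weight, against 1985 in the reported fit. Leaving out 1 library at a time put it between 1528 (without HS replicate 2) and 3399 (without HS replicate 3), and DEGs higher in HS between 1750 (without CK replicate 3) and 2449 (without HS replicate 3). An adjusted p under 0.05 alone gave 7437 genes, and a test against a 2-fold change (glmTreat) gave 1313. DESeq2 gave 4413 DEGs, no filter 4294, 10 counts in every library 3094, only the HS and CK libraries 4142, and no organelle genes 4055.

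Correlations across genes could not decide whether replicate numbers pair the samples, since HS replicate 3 stood apart within HS. Deviations of same-numbered HS and CK libraries correlated at -0.32, 0.20 and -0.10 across genes, and not every library correlated best with its own number. With a replicate block there were 4067 DEGs (2004 higher, 2063 lower), and 4085 with a GC trend offset as well.

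Of 197 genes fixed for naming, none changed direction under the alternatives in which it was tested (163 with 10 counts in every library, 189 without organelle genes, 197 in the others). They were chosen as large changes in the reported fit of the same libraries, so their kept direction says little about other genes. The call was kept by 196 with DESeq2, 177 without TMM, 194 without HS replicate 3 and from 175 to 178 without any other single library. List medians turned sign for HSP70s (0.17 with TMM, 0.00 to the nearest hundredth and below 0 without it), cuticular wax (0.20 and -0.01) and aquaporins (0.13, and -0.17 without HS replicate 3). Gibberellin and brassinosteroid genes (0.21, and -0.04 without HS replicate 3), sugar starvation genes (0.07 and -0.69), starch genes (-0.15 and 0.05) and alternative respiration genes (0.21 and -0.07) turned likewise. So did tau class glutathione transferases (-0.29, and 0.63 with 10 counts in every library), jasmonate genes (-0.26, and 0.02 with the same filter) and flavonoid genes (-0.12, and 0.14 without HS replicate 2). The root, flower and guard cell marker lists also turned under that filter. The causes were not tested. With 3 libraries a group, differences near 2-fold at low counts could be missed, and absence from the DEGs is no sign of an equal level.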

Other observations

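Genes other than protein-coding ones were few, and more of them were higher than lower in HS. Of 109 tested transcribed pseudogenes, 37 were DEGs higher (33.9%) and 13 DEGs lower in HS (11.9%). Of 143 other pseudogenes, 35 were higher (24.5%) and 15 lower (10.5%), and of 47 long non-coding RNA genes, 12 were higher (25.5%) and 3 lower (6.4%). Among the 18375 nuclear protein-coding genes the shares were 10.8% and 10.5%. Pseudogenes can share reads with their parent genes, and the part of this in the counts was not tested.

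DEGs of both directions had shorter and simpler gene models than the tested protein-coding genes as a whole. The median exon length was 1668 bases for the 1977 DEGs higher in HS, 1634 bases for the 1923 DEGs lower in HS and 1806 bases for all tested. The median number of exon blocks was 4, 3 and 5 in the same order. Genes with 1 exon block made up 21.4% of the higher DEGs, 21.2% of the lower DEGs and 15.2% of all tested. No test was run on these values.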
